A study of Homo sapiens with 6 samples.

Results

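The 10 genes described here encode AP-1 subunits and their close relatives: the FOS family (FOS, FOSB, FOSL1 and FOSL2), the JUN family (JUN, JUNB and JUND) and the relatives ATF3, JDP2 and BATF3. They were taken by symbol from the 26819 genes of the table, and all 10 are listed once. The cells were C4-2, an LNCaP-derived prostate cancer line that grows without androgen support, and every library carried Tet-O-YAP5SA, a doxycycline-inducible YAP1 in which the serines that LATS kinases phosphorylate are replaced. RNA was sequenced from 3 libraries without doxycycline (Ctrl) and 3 libraries after 24 hours of doxycycline (Dox), given in the labels as 0.2 mg/ml, a unit that is in doubt because the concentration is high for an inducible line. The labels do not say whether the line is 1 clone or whether the replicates were separate cultures, so p-values cover only library-to-library spread, which may be technical. No cells lacking the transgene were given doxycycline in this design, so an effect of the drug cannot be told apart from that of the transgene.

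AP-1 is a dimer of basic leucine zipper (bZIP) proteins that binds short DNA sites and passes growth factor, stress and cytokine signals to transcription. FOS proteins cannot pair with themselves and need a JUN partner, whereas JUN proteins can also pair with each other. FOSL1 and FOSL2 lack the strong activating end of FOS, and JDP2 and ATF3 can act as repressors at the same sites. YAP1 does not bind DNA itself. It acts through TEAD factors, whose sites often lie beside AP-1 sites in enhancers of epithelial cancer cells.

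The level of YAP1 was 56.8 ± 3.72 TPM in Ctrl and 269 ± 6.92 TPM in Dox (SD, n = 3), in the direction of the labels, without separating transgene from endogenous transcripts. Reads recovered from the values totalled 24960546 to 29261658 per library. All 9 luminal prostate markers were expressed, with a summed level of 6543 to 6641 TPM in Ctrl and 5456 to 5547 TPM in Dox. The basal markers KRT5 and TP63 stayed under 0.03 TPM and KRT14 lay between 1.17 and 1.75 TPM. The listed stromal, endothelial and immune markers summed to at most 0.233, 0.644 and 0.189 TPM in any library, and the endothelial sum was at most 0.0197 TPM in Ctrl against at least 0.381 TPM in Dox. Whether other cells had a part in any result was not tested beyond these levels. Of all 14833 genes tested, 53.7% were called changed at a limma adjusted p under 0.05, 35.9% higher and 17.8% lower.

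The promoters of the core subunits are shown first, because FOS, which fell, and FOSB and FOSL2, which rose, share an element there. JUND and the JDP2 start shown hold this element too. The sequences are the last 100 bases before the annotated start, 5′ to 3′ on the gene's strand, from RefSeq (GRCh38.p14). Capitals mark matches to the cyclic AMP response element (CRE) core TGACGT and its longer form TGACGTTT, to TGACATCA (the AP-1-like site through which JUN is known to act on its own gene), to the TEAD site GGAATG and to the TATA box TATAAA, each searched on both strands. For JDP2, 1 of its 3 annotated starts is shown, the only one with a match to any motif searched.
FOS (chr14:75278728-75278827, plus strand): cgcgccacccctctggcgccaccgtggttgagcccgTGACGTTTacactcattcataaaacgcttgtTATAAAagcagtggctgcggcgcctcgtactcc
FOSB (chr19:45467896-45467995, plus strand): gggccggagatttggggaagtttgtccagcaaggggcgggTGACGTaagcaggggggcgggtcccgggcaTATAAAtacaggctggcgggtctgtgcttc
FOSL2 (chr2:28392758-28392857, plus strand): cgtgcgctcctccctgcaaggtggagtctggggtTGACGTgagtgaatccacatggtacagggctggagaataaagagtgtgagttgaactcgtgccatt
JUN (chr1:58784048-58784147, minus strand): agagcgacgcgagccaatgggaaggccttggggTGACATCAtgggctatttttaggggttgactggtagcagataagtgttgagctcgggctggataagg
JUNB (chr19:12791386-12791485, plus strand): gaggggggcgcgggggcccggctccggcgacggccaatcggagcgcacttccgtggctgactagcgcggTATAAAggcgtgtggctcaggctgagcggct
JUND (chr19:18281623-18281722, minus strand): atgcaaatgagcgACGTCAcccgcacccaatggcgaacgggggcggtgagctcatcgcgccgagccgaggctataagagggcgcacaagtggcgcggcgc
JDP2 (chr14:75427922-75428021, plus strand): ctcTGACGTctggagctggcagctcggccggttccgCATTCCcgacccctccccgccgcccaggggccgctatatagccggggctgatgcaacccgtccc

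FOS, FOSB and FOSL2 each held the CRE core at nearly the same distance from the start, 64 to 59 bases before it in FOS, 60 to 55 in FOSB and 66 to 61 in FOSL2. In FOS it is part of TGACGTTT, a longer, FOS-type form of the CRE, which 0.419% of the 35116 RefSeq promoters hold in their last 250 bases. The CRE core itself is in 7.1% of those promoters and the TATA box in 10.7%. FOS and FOSB held both, FOSL2 held no TATAAA, and JUNB held TATAAA without the CRE core. JUN carried TGACATCA 67 to 60 bases before its start (2.37% of promoters), and the first of the 2 annotated starts of ATF3 had it 123 to 116 bases before. JUND held the CRE core at 87 to 82 bases. It held the full palindrome TGACGTCA (1.65% of promoters, overlapping the core) at 200 to 193 bases, outside the stretch printed. The JDP2 start shown held the CRE core at 97 to 92 bases. The TEAD site GGAATG, found in 11.9% of promoters, was present in 1 entry of the 8 genes, the JDP2 start shown. The canonical AP-1 site TGACTCA (4.2%) and the CArG box (1.16%) were in none of the 250-base windows of these genes. Elements further than 250 bases from the start, in FOS or the other genes, were not searched. These matches describe letters, not binding. TGACGTTT and TGACATCA were searched after the first motifs, as FOS-type and JUN-type sites. Finding them in FOS and JUN is therefore no independent result, however few promoters hold them. Windows for FOSL1 and BATF3 were not used here.

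With doxycycline the FOS-family transcripts shifted from mostly FOS to mostly FOSL2, JUNB and JUND fell, and the repressor gene JDP2 rose. FOS dropped 5.04-fold and JDP2 rose 3.87-fold, and JUN and ATF3 did not pass the test. Of the 9 members tested, 4 were called higher and 3 lower, against 53.7% of all tested genes. FOSB and BATF3 reached the level needed for testing only through the Dox libraries, so a call for them is favoured by the filter. Leaving them out, 5 of 7 were called. For 7 of the 10 genes no Dox library fell within the Ctrl range or the reverse, beside 61.9% of all tested genes (40.8% higher and 21.1% lower in Dox). FOSB and BATF3 are among these 7. All their Ctrl libraries lay under 1 TPM and all their Dox libraries above it, so passing the filter fixed their separation in advance. FOSL1, which is among the 10, was not tested. The median log2 fold change of the 9 was 0.10, as was that of all tested genes. The split into higher and lower depended on scaling: 4 higher and 4 lower after median-ratio rescaling of the libraries, and 2 higher and 4 lower after quantile normalization, where all tested genes went from 66.8% higher among the called to 50.1% and 44.9%.

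**Figure D1:**
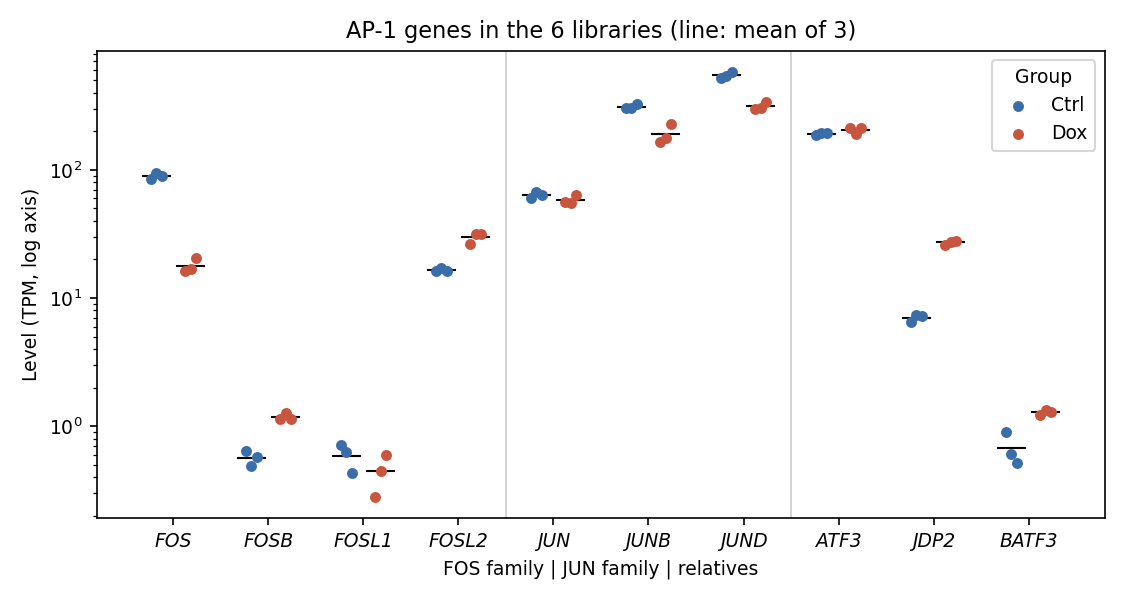
Level of each of the 10 genes in TPM (log axis) in the 3 Ctrl and 3 Dox libraries, with points for libraries and lines for means. FOS lies at 85.2 to 94.5 TPM in Ctrl and 16.1 to 20.4 TPM in Dox, whereas JDP2 lies at 6.55 to 7.33 and 26.0 to 28.0 TPM.

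FOS, the founding member and the main signal-induced partner of JUN, stood at 85.2, 94.5 and 90.0 TPM in the Ctrl libraries and at 16.1, 16.9 and 20.4 TPM in the Dox libraries. Every Dox library was below every Ctrl library, with a wide gap between the groups. These levels rest on 2474, 2578 and 2476 reads in Ctrl and 391, 454 and 581 reads in Dox. The log2 fold change, on the log2(TPM + 1) scale used for all such values here, was -2.28 ± 0.09 (SE, limma adjusted p = 6.6e-07). It ranged from -2.40 to -2.21 over the alternatives tried.

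FOSL2, which encodes FRA-2, went the other way. Its level was 16.2, 17.2 and 16.4 TPM in Ctrl and 26.5, 31.6 and 31.3 TPM in Dox. The groups were apart, with the first Dox library lower than the other two. The rise was 1.80-fold (log2 fold change 0.80 ± 0.07, limma adjusted p = 6.7e-05).

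The other 2 FOS-family genes were near the limit of detection. FOSB, known for the long-lived splice form ΔFosB, had 0.643, 0.492 and 0.572 TPM in Ctrl and 1.13, 1.26 and 1.15 TPM in Dox, from 23 to 32 and 47 to 58 reads. The groups did not overlap, and the log2 fold change was 0.47 ± 0.12 (limma adjusted p = 0.012), which understates the 2.07-fold ratio of mean TPM because of the added 1 TPM. In GENCODE 29 FOSB overlaps ERCC1, a DNA repair gene on the other strand, without shared exon bases. ERCC1 went from 41.2 ± 0.489 to 59.6 ± 1.12 TPM, and the sources used here do not give the strand setting, so its part in the FOSB reads was not tested. FOSB's call is lost after quantile normalization (limma adjusted p = 0.095).

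FOSL1, which encodes FRA-1, the subunit most tied to invasive carcinoma cells, was at 0.709, 0.629 and 0.436 TPM in Ctrl and 0.283, 0.448 and 0.602 TPM in Dox. These are 7 to 12 and 4 to 10 reads per library, the groups overlapped, and the gene was too low to be tested. A difference in FOSL1 was not detectable at this depth.

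JUND, the most evenly expressed of the JUN family in many tissues, was the most abundant member in both groups. Its level was 518, 538 and 579 TPM in Ctrl and 298, 304 and 338 TPM in Dox. The groups were far apart, and the fall was 1.74-fold (log2 fold change -0.80 ± 0.06, limma adjusted p = 2.2e-05).

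JUNB, often a weaker activator than JUN, was at 302, 304 and 326 TPM in Ctrl and 164, 177 and 228 TPM in Dox. The third Dox library stood above the other two and still below all Ctrl libraries. The log2 fold change was -0.72 ± 0.11 (limma adjusted p = 0.00097), and -0.86 without that library. In GENCODE 29 JUNB shares 259 of its 1820 exon bases with HOOK2 on the other strand, a gene at 9.29 ± 0.403 and 10.7 ± 0.400 TPM, far below JUNB.

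JUN, the partner with the strongest activating domain, had 60.5, 66.8 and 63.3 TPM in Ctrl and 55.7, 55.4 and 64.0 TPM in Dox. The groups overlapped through the third Dox library. The log2 fold change was -0.12 with a 95% interval of -0.27 to 0.03 (limma adjusted p = 0.15). The call depended on processing: JUN was called lower after median-ratio rescaling (-0.23, adjusted p = 0.020), after quantile normalization (-0.25, 0.019), with limma voom on the recovered reads (-0.16, 0.016) and without the third Dox library (-0.19, 0.021).

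**Figure D2:**
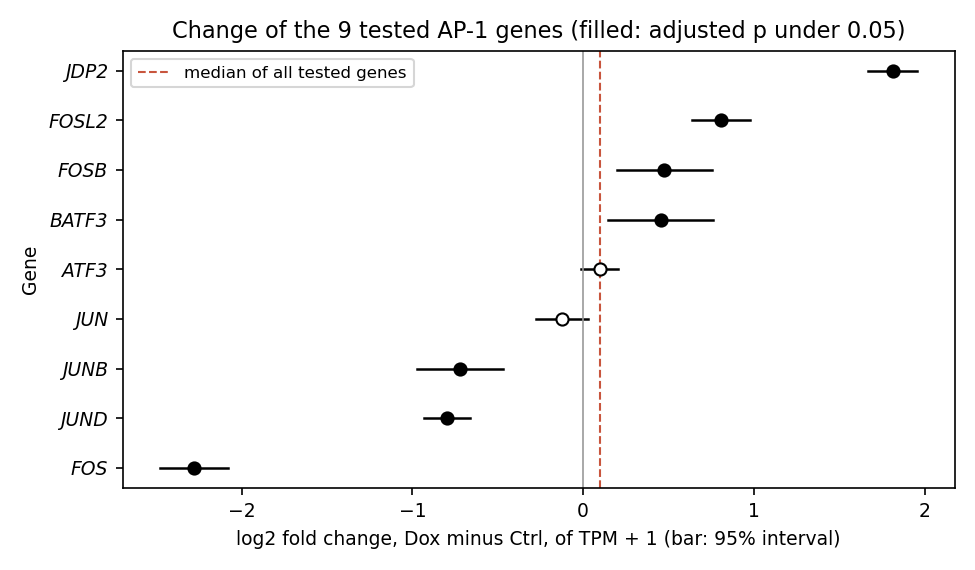
Log2 fold change (Dox minus Ctrl, of TPM + 1) of the 9 tested genes with 95% intervals; filled points passed the limma test and the dashed line is the median of all tested genes, 0.10. FOS lies at -2.28 and JDP2 at 1.81, and the intervals of JUN and ATF3 include 0.

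Among the relatives, JDP2 changed most. JDP2 (Jun dimerization protein 2) pairs with JUN proteins and recruits histone deacetylases. Its level was 6.55, 7.33 and 7.21 TPM in Ctrl and 26.0, 27.6 and 28.0 TPM in Dox, from 366 to 385 and 1212 to 1534 reads. All Dox libraries were well above all Ctrl libraries, with little spread within either group. The log2 fold change was 1.81 ± 0.06 (limma adjusted p = 4.0e-07), and 1.19% of all tested genes had a larger one. It ranged from 1.65 to 1.94 over the alternatives. GENCODE 29 places a small antisense gene over JDP2 that shares 26 of its 6235 exon bases.

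ATF3, the closest relative of JDP2 and a stress-induced gene, was at 186, 192 and 195 TPM in Ctrl and 212, 191 and 212 TPM in Dox. The groups overlapped through the second Dox library. The log2 fold change was 0.10 with a 95% interval of -0.01 to 0.21 (limma adjusted p = 0.12), equal to the median of all tested genes. Without the second Dox library it was 0.15 and passed (limma adjusted p = 0.016), and after median-ratio rescaling it was -0.01 and did not.

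BATF3, best known from dendritic cells, had 0.904, 0.612 and 0.520 TPM in Ctrl and 1.23, 1.34 and 1.30 TPM in Dox, from 12 to 22 and 25 to 31 reads. The groups did not overlap. The log2 fold change of 0.45 ± 0.13 (limma adjusted p = 0.022) is a fragile call. It is lost after quantile normalization (adjusted p = 0.12) and without Ctrl replicate 2 (0.057), Ctrl replicate 3 (0.072), Dox replicate 2 (0.061) or Dox replicate 3 (0.055).

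The order of the levels changed accordingly. In Ctrl it ran JUND, JUNB, ATF3, FOS, JUN, FOSL2 and JDP2, each apart from the next in all libraries, followed by BATF3, FOSL1 and FOSB, whose ranges overlapped. In Dox it ran JUND, ATF3, JUNB, JUN, FOSL2, JDP2, FOS, BATF3, FOSB and FOSL1. There ATF3 overlapped JUNB, FOSL2 overlapped JDP2 and BATF3 overlapped FOSB. FOS thus moved from the fourth to the seventh place. The ratio of FOS to JDP2 levels was 12.8 ± 0.280 in Ctrl and 0.655 ± 0.0648 in Dox (SD, n = 3), and that of FOS to FOSL2 was 5.42 ± 0.134 and 0.599 ± 0.0585.

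Summed over its 4 genes, the FOS-family level was 103, 113 and 107 TPM in Ctrl and 44.0, 50.2 and 53.5 TPM in Dox. The JUN-family sum was 880, 909 and 968 TPM in Ctrl and 518, 536 and 630 TPM in Dox. Both sums were lower in every Dox library, by 2.19-fold and 1.64-fold in the means. JUN-family transcripts outnumbered FOS-family transcripts in all libraries, and the FOS-to-JUN ratio was 0.117 ± 0.00659 in Ctrl and 0.0879 ± 0.00506 in Dox. That ratio depends on counting per length: with sums of recovered reads, which weight the long FOSL2 transcript more, it was higher in Dox by 0.10 on the log2 scale instead of lower by 0.42.

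Within the FOS family, FOS made up 82.9%, 83.8% and 83.8% of the summed level in Ctrl and 36.6%, 33.7% and 38.2% in Dox. FOSL2 made up 15.8%, 15.2% and 15.3% in Ctrl and 60.2%, 62.9% and 58.6% in Dox. The leading transcript of the family was therefore FOS in every Ctrl library and FOSL2 in every Dox library. The share of FOSB was 0.531 ± 0.0949% in Ctrl and 2.41 ± 0.229% in Dox, and that of FOSL1 was 0.551 ± 0.142% and 0.887 ± 0.242% with overlapping groups.

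The JUN family had the same order of members in both groups. JUND held 59.3 ± 0.468% in Ctrl and 55.9 ± 2.02% in Dox, JUNB 33.8 ± 0.420% and 33.7 ± 2.28%, and JUN 6.92 ± 0.403% and 10.4 ± 0.304% (SD, n = 3). The groups did not overlap for JUN and JUND and did for JUNB. The JUND share differed by -3.35 percentage points (Dox minus Ctrl), and by -2.21 without Dox replicate 3. Across the 2 sums, the ratio and the 7 shares, the two-sided exact permutation test gave p = 0.1 for 8 of them, the smallest value that 3 against 3 allows (0.125 adjusted over the 10). The exact permutation p was 0.2 for the FOSL1 share and 0.9 for the JUNB share.

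**Figure D3:**
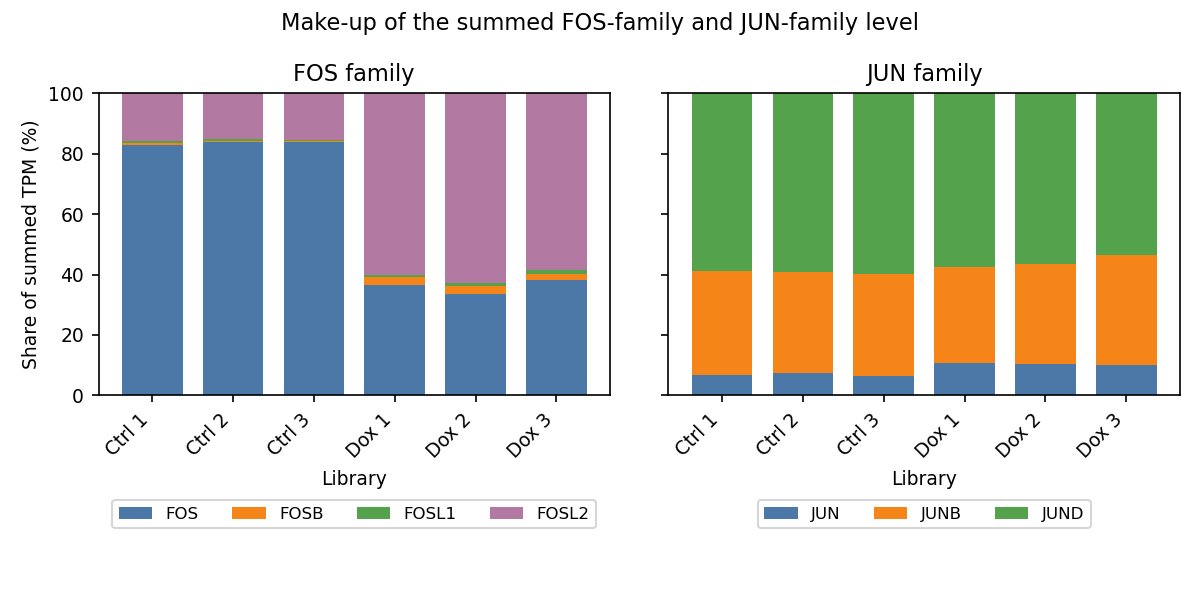
Share of each gene in the summed TPM of its family, in percent, for each library. FOS takes 82.9% to 83.8% of the FOS family in Ctrl and 33.7% to 38.2% in Dox, and the JUN family is led by JUND in all 6 libraries.

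The third Dox library was the highest of the 3 Dox libraries for 6 of the 10 genes, among them FOS, JUN, JUNB and JUND, where 25.5% of all tested genes were highest there. Its part in these values was measured by leaving it out: FOS then had a log2 fold change of -2.37, JUND -0.85 and JDP2 1.79, all still called.

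The position of the genes was compared with their change. In RefSeq the next protein-coding gene after FOS is JDP2, and BATF follows JDP2. These neighbours moved in opposite directions, with FOS lower and JDP2 higher. TMED10, the protein-coding gene on the other side of FOS, was at -0.10 on the log2 scale (limma adjusted p = 0.076), and BATF stayed low at 0.277 ± 0.187 and 0.671 ± 0.128 TPM. JUN, JUNB and JUND have a single exon in their principal GENCODE 29 transcripts, and the FOS-family genes, ATF3 and JDP2 have 4. The single-exon structure was thus shared by genes that fell and by JUN, which did not pass.

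The transcripts nearest to FOS in pattern over the 6 libraries, by the distance between mean-centred log2(TPM + 1) values, included CHAC1 and ANKRD37. CHAC1, a glutathione-degrading enzyme gene of the ATF4 program, lay at a distance of 0.384 and ANKRD37, a hypoxia-inducible gene, at 0.415. Their log2 fold changes were -2.02 and -2.10, beside -2.28 for FOS. With only Ctrl and Dox libraries, the distance largely reflects the size of this change, and shared regulation was not tested.

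The other bZIP genes, which share the DNA-binding and dimerization fold, were divided. Of 32 tested of 40, 15 rose and 10 fell (12 and 13 under median-ratio rescaling, 11 and 14 under quantile normalization), where 35.9% of all tested genes were called higher and 17.8% lower. The list had a median log2 fold change of 0.18 beside 0.10 for all tested genes. HLF and TEF, of the proline and acidic amino acid-rich group, rose 4.65-fold to 16.0 ± 1.37 TPM and 2.36-fold to 33.0 ± 0.664 TPM, whereas DBP of the same group fell from 24.9 ± 1.11 to 14.6 ± 1.57 TPM. CREB3L1, a factor anchored in the endoplasmic reticulum, rose 5.47-fold from 0.457 ± 0.130 TPM, and CREB1, which binds the CRE, rose 1.73-fold. CREB3L1 and MAFA passed the filter on low values only through the Dox libraries, which favours their calls. The stress factors DDIT3 and ATF4 fell 3.23-fold and 1.60-fold, and the small MAF protein gene MAFF, itself signal-induced, fell 1.75-fold. ATF2 and ATF7 are among the JUN partners of the CREB/ATF group. ATF2 did not pass (log2 fold change 0.09, limma adjusted p = 0.29) and ATF7 fell by 0.42.

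The arm that switches AP-1 genes on runs from MAP kinases to SRF and its ternary complex partners. Of 27 tested members of 28, 8 rose and 4 fell (7 and 6 under median-ratio rescaling, 6 and 8 under quantile normalization), with a median of 0.06. That is 44.4% called, beside 53.7% of all tested genes. MKL1 (MRTFA), an actin-sensing coactivator of SRF, rose most, from 10.9 ± 0.570 to 29.2 ± 2.60 TPM. The kinase genes MAPK3 (ERK1), RPS6KA3 and MAPK9 (JNK2) rose 1.63-fold, 1.43-fold and 1.36-fold. MAPK7 (ERK5) fell 1.42-fold, RPS6KA4 1.23-fold, MAP2K3 1.22-fold and ELK1, a ternary complex factor, 1.18-fold. For SRF itself the log2 fold change was 0.16 (limma adjusted p = 0.17).

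FOS and JUN transcripts and proteins are short-lived. The 12 genes tested here bear on the stability of these transcripts or proteins, and not all of them speed decay. Of these 6 rose and 1 fell (5 and 2 under median-ratio rescaling, 5 and 3 under quantile normalization), with a median of 0.22. The share called was 58.3%, near the 53.7% of all tested genes. ZFP36L2 and ZFP36L1, which bind AU-rich elements and speed mRNA decay, rose 2.92-fold to 23.6 ± 1.48 TPM and 2.04-fold to 25.0 ± 1.63 TPM. Their relative ZFP36 (tristetraprolin), a signal-induced gene, fell from 93.5 ± 3.03 to 43.0 ± 6.07 TPM. ITCH and RFWD2 (COP1), ubiquitin ligases that act on JUN proteins, rose 1.32-fold each.

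Immediate early genes are induced by the same signals as FOS. Of 19 tested of 27, 10 fell and 6 rose (12 and 6 after either rescaling), with a median of -0.26. Of all tested genes 17.8% were called lower and 35.9% higher. ARC, among those that fell, passed the filter only through the Ctrl libraries. Among the Dox libraries the third held the highest level for 11 of the 19, against 25.5% of all tested genes, and without it 11 fell and 6 rose. DUSP5, IER3, NR4A1 and KLF6 fell 3.31-fold, 2.18-fold, 2.17-fold and 2.01-fold. The orphan receptor NR4A1 went from 33.9 ± 1.08 to 15.7 ± 0.357 TPM. MYC rose 2.20-fold, DUSP1 1.93-fold, GADD45B 1.75-fold and CSRNP1 1.51-fold. EGR1, usually induced with FOS, was too low to be tested, at 0.976 ± 0.169 TPM in Ctrl and 0.389 ± 0.0966 TPM in Dox, from 22 to 29 and 8 to 13 reads, with every Dox library below every Ctrl library.

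Genes known as AP-1 targets were mostly low in these cells: of 29, 25 were listed and 9 were expressed enough to be tested. Of these 4 rose and 3 fell (4 and 5 under median-ratio rescaling, 3 and 5 under quantile normalization), with a median of -0.09. With 9 genes tested, these counts stand beside 35.9% higher and 17.8% lower over all tested genes. CCL2, a monocyte-attracting chemokine, was at 1.02 ± 0.105 TPM in Ctrl (9 to 11 reads) and 8.34 ± 0.698 TPM in Dox, an 8.18-fold rise, and passed the filter only through the Dox libraries. HBEGF, a ligand of the EGF receptor, rose 4.53-fold to 29.7 ± 0.815 TPM. CCND1 rose 1.52-fold and DUSP4 1.34-fold, the latter a call lost after quantile normalization (limma adjusted p = 0.089), without Ctrl replicate 3 (0.051) and without Dox replicate 2 (0.055). VEGFA fell 2.17-fold from 42.1 ± 0.655 to 19.4 ± 2.13 TPM, TGFB1 2.06-fold and SPHK1 1.37-fold. The protease genes MMP1, MMP3 and MMP9 and the plasminogen activator gene PLAU, textbook AP-1 targets, were at most at 0.173 TPM in any library. MMP10, also too low to be tested, reached 0.776 TPM in Dox replicate 3, and MMP13 was tested and did not pass (log2 fold change -0.32, limma adjusted p = 0.058).

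**Figure D4:**
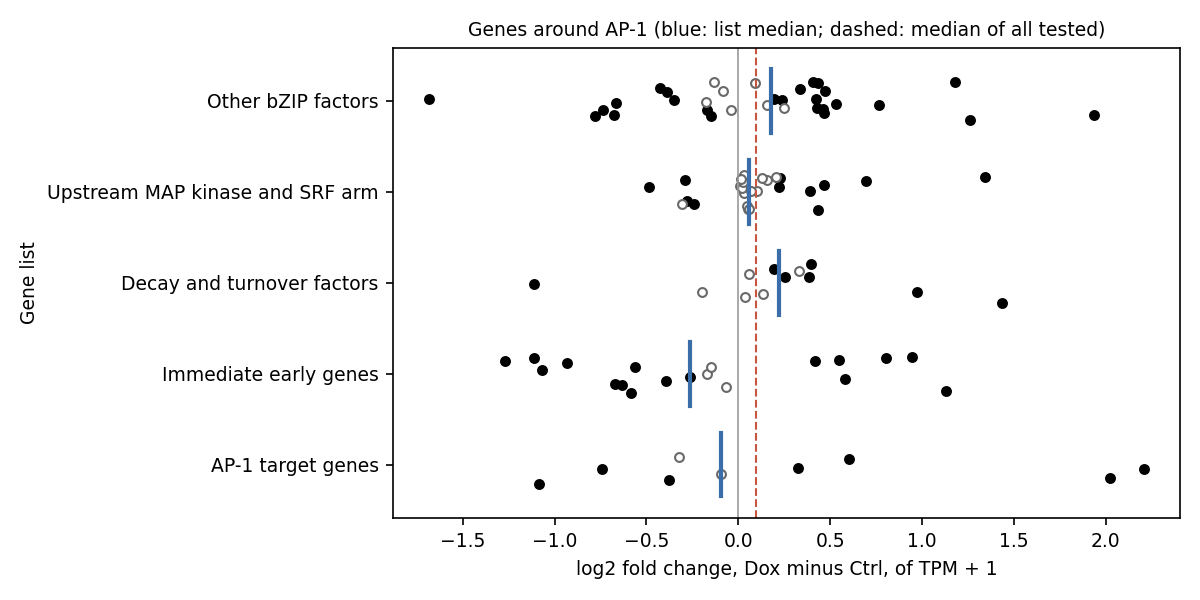
Log2 fold change (Dox minus Ctrl, of TPM + 1) of the tested genes of 5 lists around AP-1; filled points passed the limma test, blue bars are list medians and the dashed line is the median of all tested genes, 0.10. Immediate early genes have the lowest median, -0.26, and every list holds genes on both sides of 0.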

How the data were processed

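The deposited table gives TPM (reads divided by gene length, scaled to the same total in each library), made by the authors for each of the 6 libraries. Per the submitters' processing notes, FastQC 0.11.2, STAR 2.5.3a, featureCounts and edgeR were used with hg19. The sources used here give no annotation release or strand setting.

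A gene was tested if 3 or more libraries reached 1 TPM. The 14833 such genes were fitted on log2(TPM + 1) by limma 3.58.1 (R 4.3.3; mean-variance trend, no replicate block), and two-sided p-values were adjusted over all of them by Benjamini-Hochberg, with a threshold of 0.05. Fold values without log2 are ratios of mean TPM. Whole reads were recovered with GENCODE 29 exon lengths or, failing these, the smallest length giving whole reads in all libraries (tolerance 0.01), for 100% of tested genes. Their depth sets the precision, and 3 reads on 1 kb equal 0.335 to 0.401 TPM. The fit, the read recovery and the exact test were tested on simulated data. Same-numbered Ctrl and Dox libraries did not deviate together (r of -0.0085 to 0.0633 across genes), and no pair of libraries in a group matched within counting error (2.55 to 4.99 chi-square units per gene).

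The members and lists were chosen with earlier results of these data known. All 10 members are named, and of each list up to 4 called, non-overlapping genes per direction. Other genes (ATF2, ATF7, SRF, EGR1, ERCC1, HOOK2, the neighbours, the proteases) were named after their values were seen, and the CRE core, TGACATCA, TGACGTTT and TATAAA were searched after the first motifs. Of the 3 genes nearest to FOS, 1 is not reported here. Alternatives were another pseudocount (0.1), other filters, median-ratio rescaling, quantile normalization, no trend, a replicate block, voom on recovered reads, and leaving out each library. Figures were drawn with matplotlib 3.10.9.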

Additional observations from a re-analysis of the deposited data

How the results depend on the processing

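Under the alternatives run, FOS, JUNB, JUND, FOSL2 and JDP2 kept their direction and their call, and JUN, ATF3, FOSB and BATF3 did not keep theirs throughout. Over the libraries left out in turn, the number of the 10 genes called was 6 to 7, and 6752 to 7589 genes were called in all. After median-ratio rescaling the log2 fold change of ATF3 was -0.013, and neither value passed. With the stricter filter (mean of at least 5 TPM) 3 of the AP-1 targets were called instead of 7, since fewer were tested.

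With sums of recovered reads, not per length, the log2 change of the FOS-family sum was -0.62 instead of -1.13, and that of the FOS-to-JUN ratio was 0.10 instead of -0.42. The differences in share (percentage points, Dox minus Ctrl) were then 1.60 for FOSB, 0.026 for FOSL1, 47.9 for FOSL2 and 5.50 for JUN. As shares of all 10 genes, by construction smaller or larger, they were -5.23 for FOS, 0.094 for FOSB, 0.0034 for FOSL1, 2.18 for FOSL2, 1.73 for JUN, -2.96 for JUNB and -7.31 for JUND. The difference in the JUNB share, -0.15 with all libraries, ranged from -1.41 to 0.81 over the libraries left out and has no stable direction. With 2 libraries in a group the spread of the others stands in for it.

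The labels do not say what a replicate number marks, and same-numbered libraries did not deviate together. With the replicate block 7 of the 10 genes and 7841 genes in all were called, and the paired differences of sums and shares equal the unpaired ones (-47.3 percentage points for FOS, exact sign-flip p = 0.25, the smallest that 3 pairs allow). FOSB and BATF3 were not tested under the stricter filter. FOSL1, FOSB and BATF3, with at most 58 reads per library, are limited by depth.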
